A study of Mus musculus with 26 samples.

Results

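CD8+ T cells that recognise a leukemia were compared between a mid and an early time point of the disease, in the liver of the same mouse model. The cells, TCRTg101, carried a transgenic T cell receptor from a clone reactive to C1498, a mouse leukemia line, and came from donors lacking Rag2. They were labelled with the division dye CTV and transferred into hosts the day before C1498 was injected intravenously. The labels give every sample as C57BL/6, wild type and 6 weeks old; the study's methods also name B6.SJL hosts. Early was day 7 (early 1 and early 2), and mid was day 13 (mid 1 and mid 2) or day 14 (mid 3), all sorted from livers of leukemia-bearing mice. These 5 libraries, 7 of the 26 deposited samples once repeat sequencing runs are counted, were chosen from the labels, and no measured value entered the choice. The series holds 15 libraries in all. Values in 6 others are given where they help: 3 controls from spleen (naive TCRTg101 at day 0 in control 1 and control 2, and cells from leukemia-free mice at day 18 in control 3), undivided cells (CTVhi) from the spleen of leukemia-bearing mice at day 18, and 2 late liver libraries (day 18 in late 1, day 16 in late 2). The controls differ from the liver libraries by organ as well as by disease. The labels do not say whether a library came from 1 animal or from a pool, so each p below measures only the spread between these libraries.

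A naive CD8+ T cell that meets its antigen leaves quiescence, switches to fast glucose use, divides many times and makes cytokines and cytotoxic granules. Where antigen persists, as in a growing tumor, such cells keep co-inhibitory receptors such as PD-1 and may lose function, a state called dysfunction or exhaustion. The liver is known as an organ in which T cells can be activated without a lasting response.

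The libraries held 38324722 (early 1), 30276723 (early 2), 71358287 (mid 1), 28413340 (mid 2) and 29183884 (mid 3) estimated counts. Levels below are CPM, the counts brought to a common library total and scaled by TMM, a factor that balances libraries. Of all genes, 14616 reached 10 counts in 6 or more of the 11 libraries and were tested. All 16 T cell identity genes were detected in all 5 libraries. *Cd8a*, a chain of the CD8 co-receptor, stood at 492 and 732 CPM in early 1 and early 2 and at 1001, 770.3 and 861 CPM in mid 1 to 3. *Trbv5*, the transgenic receptor's beta segment, took 99.08% and 99.89% of all beta segment counts at early and 99.82%, 99.46% and 99.76% at mid. *Trav13* segments, those of the transgenic alpha chain, took 59.7% and 86.7% at early and 96.4%, 64.2% and 95.7% at mid, so early 1 and mid 2 held more counts of other alpha segments. In bulk libraries, fewer cells of a type and less RNA per cell cannot be told apart.

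The early libraries were unlike each other. Over all tested genes, the root mean square difference in log2 CPM was 1.19 between early 1 and early 2, against 1.16 (mid 1 and mid 2), 1.13 (mid 1 and mid 3) and 0.71 (mid 2 and mid 3) among the mid libraries. Early 1 was nearest to mid 2, at 0.67, and stood at 1.18 to 1.34 from the controls. Early 2 was nearest to control 3, at 0.63, and to the undivided cells, at 0.69, and stood at 1.27 to 1.81 from the mid libraries. Its distance to control 2 was 0.88 and to control 1 1.18, and early 1 stood at 1.15 from the undivided cells. The library labelled early 2 was thus close to control 3 and the undivided cells, and about as far from control 1 as early 1 was from control 3. The labels do not say whether the early cells were sorted by division. The title of mid 1 begins with TG and those of the other 4 with XC; the labels do not say what the prefixes stand for, and they were taken here as series of libraries. Mid 1 also stood apart by transcript length: its short genes lay a median of 0.71 log2 units above the controls and its long genes 0.81 units below. Long genes lay 0.22 and 0.37 units below the controls in mid 2 and mid 3. Both early libraries carry the XC prefix.

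Because of this, mid was set against early 1 and early 2 together and then against each of them. Against both together, the quasi-likelihood test of edgeR, with p adjusted after Benjamini and Hochberg, called 0 of 14616 genes (0%), and the smallest adjusted p was 0.141. At an unadjusted p under 0.05, 1110 genes were higher (7.59%) and 1309 lower (8.96%) at mid. By DESeq2 464 genes were called, and limma-voom called 0. Against early 1 alone, 53 genes were higher at mid (0.363%) and 0 were lower. This balance depended on the setting: 257 were higher and 5 lower by DESeq2, 361 and 107 with no filter beyond 1 count, and 131 and 29 without mid 2. Against early 2 alone, 1660 were higher (11.4%) and 942 lower (6.44%). In these contrasts a lone early library is assumed to vary like the other groups. At an unadjusted edgeR p under 0.05, 1053 of 14616 genes differed between mid and early 1, in either direction. Within the XC series alone, 0 genes were called against both together, 1 against early 1 and 1996 against early 2. Without the series term in the model these counts were 0, 0 and 200.

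Of the 53 genes called against early 1, that library lay below all 3 controls for 49. Early 1 had the lowest value of all 11 libraries for 49 of the 53. Over all tested genes it was the lowest for 7.41%. The 53 were called because early 1 lay below mid, so these shares cannot be compared. For 20 of the 53 early 2 also lay below all mid libraries (36% of all tested genes), and for 33 it lay within or above their range. *Cebpb*, a transcription factor of inflammation and myeloid differentiation, is one of them: it stood at 3.44 CPM in early 1 and 107 CPM in early 2, and at 33.9, 54.99 and 67.9 CPM in mid 1 to 3. The controls held 64.1, 108 and 86.4 CPM of *Cebpb*, so early 1 was the exception. *Snx20*, a sorting nexin that binds PSGL-1, had the same pattern, with 15.2 CPM in early 1, 94.0 CPM in early 2 and 55.8, 82.6 and 90.4 CPM at mid. Of the 1660 genes higher at mid than in early 2, early 1 lay below all mid libraries for 795, within their range for 755 and above it for 110. Over all tested genes early 1 lay below for 24.2%, within for 50.8% and above for 25%. The contrasts with early 1 and early 2 share the mid libraries, so these shares cannot be compared either. For 635 of the 1660, early 2 lay within the range of the controls.

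Both early libraries lay below all mid libraries for 2410 genes (16.5%) and above all of them for 2552 (17.5%). With at least 2-fold between the nearest early and the nearest mid library, 150 genes lay below (1.03%) and 109 above (0.746%). In some settings more lay above: 128 below and 179 above in the XC series, and 224 and 503 with no filter beyond 1 count. Without mid 1 they were 190 and 255, and without mid 3 172 and 176. Of the 150 in the main setting, all 3 controls were also below the mid libraries for 110. Both late libraries were above both early ones for all 150. The 150 had a median GC content of 54.4% and a median length of 1599 bases. The 109 had 46.6% and 2831 bases, against 50.4% and 2039 bases over all tested genes. With a GC and length correction chosen after seeing the data, 167 genes lay below and 80 above by 2-fold. Both early libraries lay below all of the other 9 libraries for 352 genes (2.41%) and above them for 181 (1.24%). By at least 2-fold they lay below all 9 for 4 genes (0.0274%) and above for 0 (0%). Those 4 were *Akt1*, *H2-Ab1* and the processed pseudogenes *Gm10257* and *Rab11b-ps2*, of which *Akt1* alone had a mean log2 CPM of at least 5; all but *Akt1* were chosen after their values were seen.

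Against early 1 and early 2 each, 12 genes were called, all higher at mid (0.0821% of the genes tested). Within the XC series alone, or without the series term, 0 genes were called against each early library. By DESeq2, with no filter beyond 1 count, with the first run of each library only and without mid 2, some of the genes called were lower at mid. Those of the 12 named here were chosen after their values were seen. The 12 do not form a pathway list, but 2 of them belong to glycolysis. *Slc16a3* (chromosome 11, 120948480 to 120960868, plus strand, GRCm38) encodes MCT4, the transporter that exports lactate. It stood at 5.39 CPM in early 1 and 1.28 CPM in early 2, at 47.2, 74.4 and 51.1 CPM in mid 1 to 3, and at 1.98 to 2.56 CPM in the controls. All mid values were thus far above both early values, and early 2 was under the controls. The log2 difference was 3.44 ± 0.38 (SE) against early 1 (edgeR adjusted p = 0.0115) and 5.51 ± 0.45 against early 2 (edgeR adjusted p = 0.000563). *Chst2* (chromosome 9, 95399292 to 95406722, minus strand), a sulfotransferase that builds sulfated sugars such as those of selectin ligands, stood at 13.1 and 1.56 CPM at early and at 127, 111 and 169.5 CPM at mid. Its log2 difference was 3.36 ± 0.36 against early 1 (edgeR adjusted p = 0.0115) and 6.42 ± 0.44 against early 2 (edgeR adjusted p = 0.00034). The controls held 1.08 to 1.59 CPM of *Chst2* and the late libraries 179 and 198.5 CPM. *Tpi1* (chromosome 6, 124810586 to 124814296, minus strand), the glycolytic triosephosphate isomerase, stood at 214 and 57.4 CPM at early and at 1027, 766 and 724 CPM at mid. Early 1 was between the controls (57.6 to 89.7 CPM) and mid, and early 2 was at the level of the controls. Its log2 difference was 1.77 ± 0.22 against early 1 (edgeR adjusted p = 0.0155) and 3.67 ± 0.25 against early 2 (edgeR adjusted p = 0.00034).

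In the other 9 of the 12, the early libraries lay within or below the range of the controls. *Mast2*, a microtubule-associated kinase, had 14.1 and 13.1 CPM at early and 40.4, 55.6 and 86.6 CPM at mid, with 10.4 to 22.9 CPM in the controls. *Abhd17c*, which removes palmitate from proteins, had 13.4 and 22.2 CPM at early and 72.6, 59.96 and 78.9 CPM at mid, and both early values were under the controls' 30.8 to 39.2 CPM. For both genes early 1 and early 2 stood less than 2-fold apart. *Hnrnpd*, an RNA-binding protein that acts on AU-rich messages, had 84.5 and 114 CPM at early and 211, 233 and 248.7 CPM at mid. *Grk2*, a kinase that desensitises G protein-coupled receptors, had 118 and 269 CPM at early and 403, 429 and 769.9 CPM at mid, but also 369 to 598 CPM in the controls. *Crls1* (cardiolipin synthase), *Snx25*, *Fbxo45* and *Ttc7b* were likewise lower in early 1 than in every control.

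**Figure D1:**
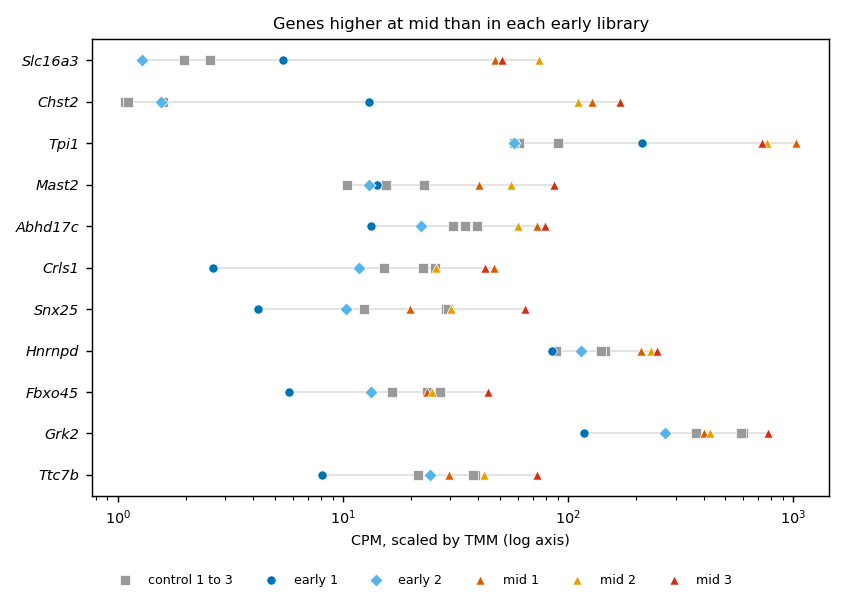
Level of 11 of the 12 genes called higher at mid than in early 1 and than in early 2, those in which the early and mid libraries do not overlap, as CPM on a log axis, 1 point per library (circle early 1, diamond early 2, triangles mid 1 to 3, grey squares the 3 controls). *Slc16a3*, *Chst2* and *Tpi1* stand far above the controls at mid, while for *Crls1* and *Grk2* the controls lie nearer to mid than early 1 does.

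Among protein-coding genes with a mean log2 CPM of at least 5, the 12 with the widest gap and both early libraries below mid were *Chst2*, *Ybx3*, *Hist1h2ae*, *Tpi1*, *Cdk2ap1*, *Mast2*, *Hdgf*, *Abhd17c*, *Akt1*, *Rcc2*, *Larp1* and *B4galt5*. *Ybx3*, a cold-shock domain protein that binds RNA and DNA, had 23.6 and 5.84 CPM at early and 479, 98.3 and 378 CPM at mid. *Hist1h2ae*, a replication-dependent histone gene, had 13.1 and 3.54 CPM at early and 612, 45.1 and 121 CPM at mid. Its values varied more than 10-fold among the mid libraries, with mid 1 the highest. Replication-dependent histone genes as a class took 0.0737% and 0.0378% of counts at early and 0.381%, 0.0987% and 0.203% at mid.

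Several of these 12 were lower at early than in the cells that had not met the leukemia. *Akt1* (chromosome 12, 112653821 to 112674884, minus strand), a kinase that relays growth factor and costimulatory signals, had 29.9 and 47.2 CPM at early and 320.1, 127 and 307 CPM at mid. The controls held 94.9, 172 and 155 CPM of *Akt1*, the undivided cells 149.8 CPM and the late libraries 364 and 292 CPM. Both early libraries were therefore the lowest of all 11. *Rcc2*, a chromosome condensation regulator, had 58.6 and 94.7 CPM at early against 236 to 556 CPM at mid and 114 to 297 CPM in the controls. *Larp1*, which controls translation of ribosomal protein messages, had 107 and 110.2 CPM at early against 273 to 402 CPM at mid and 123 to 276 CPM in the controls. *Hdgf*, a growth factor that also binds chromatin, had 98.2 and 99.1 CPM at early against 282 to 634 CPM at mid and 125 to 156 CPM in the controls. *Cdk2ap1*, a partner of CDK2, had 32.3 and 36.0 CPM at early against 121 to 407 CPM at mid and 55.3 to 66.3 CPM in the controls. For these 5 genes and *Abhd17c* both early libraries were below every control and every mid library, while for *Akt1*, *Rcc2* and *Larp1* the controls overlapped mid. None had an edgeR adjusted p under 0.05 against both early libraries together. The 5 genes with the smallest p among those higher at mid were *Mast2*, *Abhd17c*, *Hdgf*, *Larp1* and *Lpgat1*. *Lpgat1*, a lysophospholipid acyltransferase, had 22.0 and 15.4 CPM at early and 59.3, 47.8 and 60.8 CPM at mid.

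**Figure D2:**
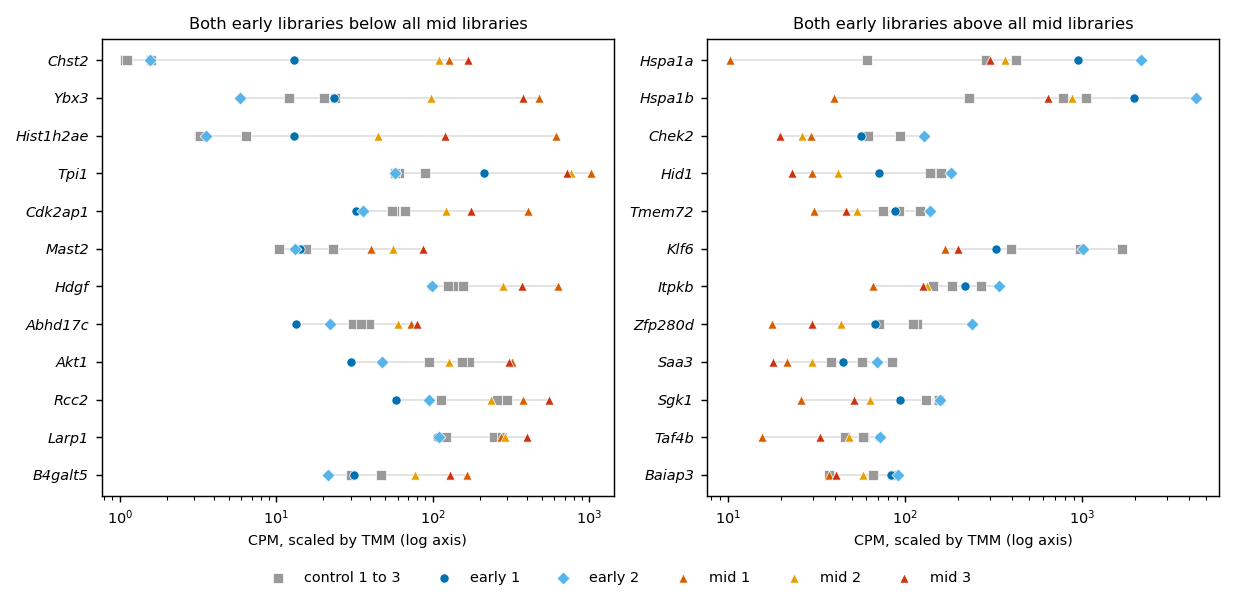
Level of the 12 protein-coding genes with the widest gap in each direction, among those whose log2 CPM averaged 5 or more, as CPM on a log axis, 1 point per library. On the left both early libraries (circle, diamond) lie below all mid libraries (triangles), and for *Akt1*, *Rcc2*, *Larp1*, *Hdgf*, *Cdk2ap1* and *Abhd17c* also below the controls (grey squares); on the right both lie above, by at least 2-fold for *Hspa1a* and *Hspa1b* only.

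In the other direction, the heat shock genes *Hspa1a* and *Hspa1b*, which encode the inducible chaperone HSP70, stood apart by more than 2-fold. *Hspa1a* (chromosome 17, 34969190 to 34972156, minus strand) had 950.1 and 2146 CPM at early and 10.3, 366 and 302 CPM at mid. *Hspa1b* (chromosome 17, 34956436 to 34959238, minus strand) had 1961 and 4409 CPM at early and 39.6, 879 and 639 CPM at mid. Both early libraries were also above all 3 controls, which held 60.6 to 422 CPM of *Hspa1a* and 230.3 to 1046 CPM of *Hspa1b*. The log2 difference was −2.75 ± 1.20 for *Hspa1a* (edgeR adjusted p = 0.306) and −2.59 ± 1.05 for *Hspa1b* (edgeR adjusted p = 0.290), and mid 1 was far below the other mid libraries in both. The pair are near-identical copies, so the split of reads between them is uncertain. Their likeness extends upstream of the gene: of the 150 bases before the RefSeq start, 149 are identical. The window of *Hspa1a* (chr17:34972157-34972306, minus strand, GRCm38.p6) is shown as the sequence the copies share, with a CCAAT box, written as ATTGG on this strand, in capitals.
Hspa1a: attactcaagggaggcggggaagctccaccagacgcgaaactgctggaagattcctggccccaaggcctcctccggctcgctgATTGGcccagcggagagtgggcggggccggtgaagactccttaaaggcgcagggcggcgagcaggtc

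The heat shock pair belonged to a list of immediate early and stress genes. Of 24 immediate early and stress genes, both early libraries lay above all mid libraries for 10 (17.5% of all tested genes did so) and below for 2 (16.5% of all), with a median log2 difference of −0.46, against −0.01 over all tested genes. None of the 24 was called by edgeR against both early libraries together, where DESeq2 called *Jun* alone. Against early 1 edgeR called 0, and *Dusp2*, higher at mid, had an unadjusted p under 0.05 and was called by DESeq2. Against early 2, 2 were lower at mid (*Junb* and *Btg1*), where 6.44% of all tested genes were, and 0 were higher. With no filter beyond 1 count, edgeR called 10 of the 24 lower at mid against both early libraries together, where 564 of 29525 genes were. In that setting *Fos*, *Hspa1a*, *Hspa1b* and *Jun* were also called lower at mid than in early 1, and *Dusp2* higher. *Junb*, an AP-1 subunit, had 857 and 2236 CPM at early and 339.7, 789 and 651 CPM at mid. *Klf6*, an immediate early transcription factor, had 325 and 1009 CPM at early and 169, 199 and 198 CPM at mid. In contrast to the heat shock pair, *Klf6* was highest in control 1, at 1679 CPM. *Hspa8*, the constitutive chaperone and the most abundant member, overlapped, with 3113 and 2760.5 CPM at early and 2707, 3025 and 2893 CPM at mid. *Dnajb1*, the co-chaperone of HSP70 and not a member of that list, had 300.2 and 629.8 CPM at early and 146, 212 and 154 CPM at mid.

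The remaining genes named for the widest gap above mid were lower in level. *Chek2*, a DNA damage checkpoint kinase, had 56.3 and 127 CPM at early and 29.5, 26.1 and 19.7 CPM at mid. *Itpkb*, a kinase that limits calcium entry and tunes T cell receptor signals, had 218 and 338 CPM at early and 66.0, 134 and 126 CPM at mid. *Sgk1*, a kinase downstream of PI3K, had 94.2 and 157 CPM at early and 25.6, 63.1 and 51.5 CPM at mid. For *Chek2*, *Hid1* (71.0 and 182 CPM at early and 29.6, 41.6 and 23.0 CPM at mid) and *Tmem72* (87.7 and 139 CPM at early and 30.5, 53.2 and 46.5 CPM at mid), early 2 lay above every control and all mid libraries lay below every control. The log2 difference of *Tmem72* against both early libraries together was −1.20. It was −0.43 with a GC and length correction chosen after seeing the data. Against early 2, *Chek2*, *Hid1*, *Tmem72*, *Itpkb* and *Dnajb1*, the 5 genes with the smallest p among those lower at mid, each had an edgeR adjusted p of 0.00747 or less. Against early 1 edgeR and DESeq2 each called 0 of these 5, and all 5 had an unadjusted p under 0.05 by edgeR.

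Mitosis genes were the only list in which every member separated early from mid. For all 36 mitosis genes, both early 1 and early 2 lay below mid 1, mid 2 and mid 3, where 16.5% of all tested genes did so. The median log2 difference was 2.10 for mid against both early libraries, 1.17 against early 1 and 5.17 against early 2, and only *Ube2c* passed 2-fold separation. Early 1 was nonetheless well above the controls, by a median of 3.16 log2 units, whereas early 2 was 0.62 units below them and the mid libraries 3.78 to 4.82 units above. In that order the list thus ran from early 2, near or under the controls, to early 1 and then to mid. *Top2a*, the topoisomerase that untangles chromosomes, had 88.3 and 3.85 CPM at early and 280.3, 136 and 256 CPM at mid, against 4.49 to 13.4 CPM in the controls. *Cdc20*, the activator of the anaphase-promoting complex, had 56.5 and 9.96 CPM at early and 360.3, 77.6 and 135 CPM at mid. *Cenpa*, the histone that marks centromeres, had 100.4 and 55.6 CPM at early and 483, 166 and 223 CPM at mid. *Bub3*, a spindle checkpoint protein and the most abundant member, was closest to overlap, with 165 and 118 CPM at early and 423, 170.5 and 195 CPM at mid. In the setting with no filter beyond 1 count, edgeR called 35 of the 36 higher at mid against both together, where 858 of 29525 genes were. In that setting it also called 22 of the 36 higher at mid than in early 1, *Top2a* and *Cdc20* among them, where 361 of 29525 genes were. All counts that follow are with the main filter. In edgeR's test 33 of the 36 were called higher at mid than in early 2 (11.4% of all tested genes) and 0 than in early 1 (0.363% of all), and 15 had an unadjusted p under 0.05 (7.59% of all) against both together. Against early 1, 18 had an unadjusted p under 0.05, where 1053 of 14616 genes did. DESeq2 called 5 higher at mid than in early 1, where it called 257 of 14616 genes.

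DNA replication genes behaved otherwise in early 1. Of 34 members, early 1 lay within the range of the mid libraries for 23 (50.8% of all tested genes) and below it for 11 (24.2%), and early 2 lay below it for 33 (36%). The median log2 difference was 0.56 against early 1 and 2.44 against early 2, and edgeR called 30 of 34 against early 2, where 11.4% of all tested genes were higher at mid. The contrast with early 1 gave 0 calls by edgeR and 0 by DESeq2, with 4 at an unadjusted edgeR p under 0.05 (1053 of 14616 over all tested genes). *Mcm6*, a subunit of the replicative helicase, had 470.3 and 156 CPM at early and 452, 467 and 911 CPM at mid. Early 1 was therefore at the level of mid 1 and mid 2. *Mcm5*, of the same helicase, had 315 and 74.3 CPM at early and 683, 261 and 596 CPM at mid. Early 1 thus lay within mid for these helicase genes and below mid for all 36 mitosis genes.

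Promoters of mitosis genes often carry CCAAT boxes, bound by NF-Y, and a CHR element, TTTGAA, bound by cell cycle complexes. In the 150 bases before the RefSeq start, CCAAT on either strand was in 22 of 30 mitosis promoters with an entry (73.3%), against 25.3% of all 27025 promoters and 28.8% of those of tested genes. TTTGAA on either strand was in 11 of 30 (36.7%), against 9.24% of all and 5.78% of those of tested genes. CCAAT was in 14 of 27 replication promoters (51.9%) and TTTGAA in 3 (11.1%). These are counts of letters and not of bound sites. The windows of *Ube2c* (chr2:164769779-164769928, plus strand), *Cdc20* (chr4:118437344-118437493, minus strand) and *Cdk1* (chr10:69352913-69353062, minus strand; GRCm38.p6, RefSeq) show both elements, in capitals, with CCAAT as ATTGG and TTTGAA as TTCAAA where they lie on the other strand; they do not overlap.
Ube2c: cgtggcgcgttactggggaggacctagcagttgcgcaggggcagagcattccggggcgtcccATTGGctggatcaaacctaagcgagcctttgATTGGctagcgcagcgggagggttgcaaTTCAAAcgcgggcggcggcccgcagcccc
Cdc20: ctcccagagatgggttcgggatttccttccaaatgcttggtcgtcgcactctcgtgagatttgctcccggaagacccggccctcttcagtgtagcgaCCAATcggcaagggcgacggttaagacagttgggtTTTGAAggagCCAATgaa
Cdk1: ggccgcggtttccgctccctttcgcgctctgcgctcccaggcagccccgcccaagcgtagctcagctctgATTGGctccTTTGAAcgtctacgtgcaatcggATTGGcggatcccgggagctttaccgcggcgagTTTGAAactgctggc
*Ube2c*, the ubiquitin-conjugating enzyme of the anaphase-promoting complex, had 22.7 and 2.05 CPM at early and 335, 49.8 and 84.6 CPM at mid. *Cdk1*, the kinase that drives mitosis, had 21.3 and 0.520 CPM at early and 196, 35.0 and 69.8 CPM at mid. These and *Cdc20* are examples chosen after their values were seen.

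Among cell cycle inhibitors and quiescence genes no such order was seen. Of 15 tested, both early libraries lay below mid for 3 (16.5% of all tested genes) and above for 2 (17.5%), and the median log2 difference was −0.22. *Btg1*, an antiproliferative gene, had 514 and 1150 CPM at early and 320.2, 626 and 352 CPM at mid. *Klf2*, which keeps T cells quiescent and circulating, had 348 and 1320.2 CPM at early and 275, 436 and 254 CPM at mid. In both, early 1 lay within mid and early 2 above it.

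**Figure D3:**
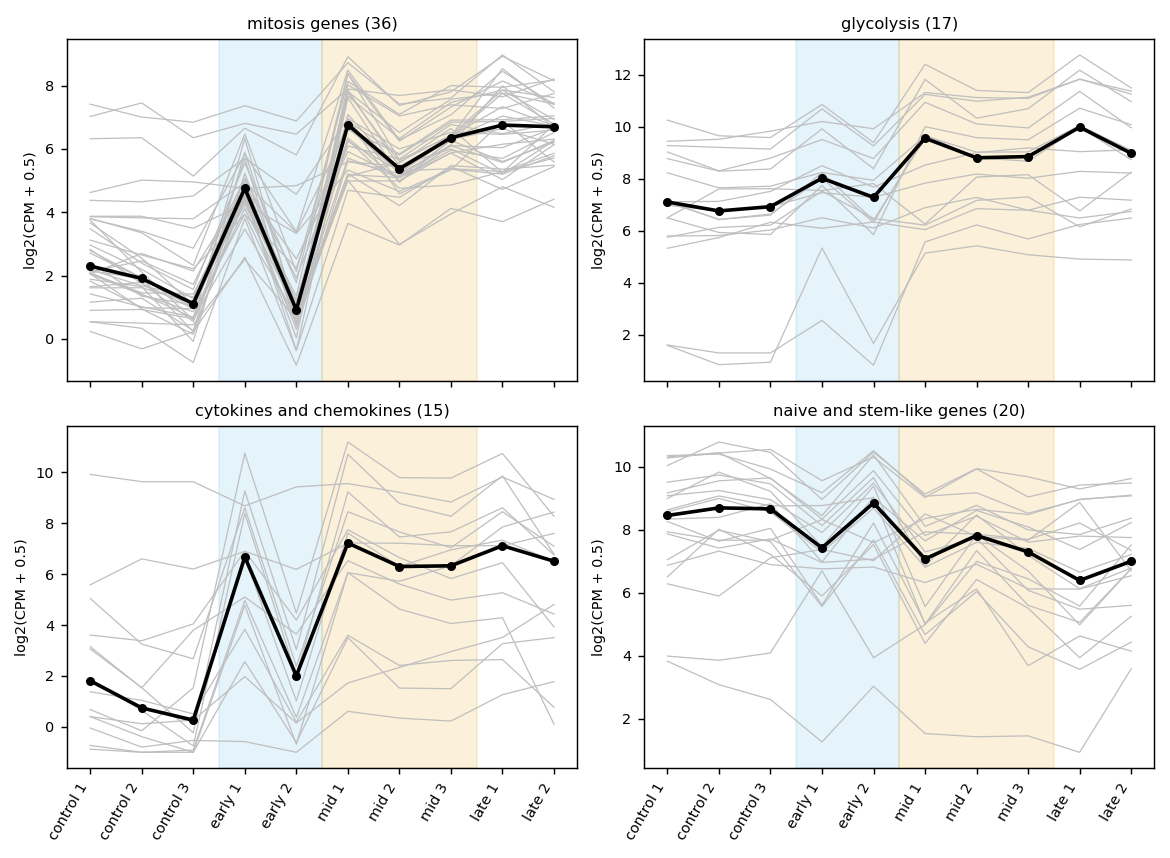
Level of each tested member (grey lines) and the list median (black line with points) as log2(CPM + 0.5) in 10 libraries, for mitosis, glycolysis, cytokine and naive lists, with early shaded blue and mid shaded orange. The mitosis and glycolysis medians are higher in every mid library than in early 1, the cytokine median of early 1 is at the level of mid, and early 2 is near the controls in all panels.

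Glycolysis genes were mostly lower in both early libraries than at mid. Of 17 genes of glucose uptake, glycolysis and lactate export, both lay below all mid libraries for 13 (16.5% of all tested genes) and above for 0, and the median log2 difference was 0.89 (0.53 against early 1 and 1.34 against early 2). By edgeR 13 of 17 were called higher at mid than in early 2 (11.4% of all). Against early 1, edgeR called *Tpi1* and *Slc16a3* (0.363% of all), and DESeq2 these and *Eno1*, *Gpi1* and *Pgk1*. Against both together 14 had an unadjusted p under 0.05 (7.59% of all). *Ldha*, which makes lactate from pyruvate, had 1854 and 672 CPM at early and 5405, 2696 and 2545 CPM at mid. *Eno1*, enolase, had 1177 and 971 CPM at early and 2548, 2232 and 2182 CPM at mid, so that here early 1 and early 2 were alike and both above the controls (695 to 910.4 CPM). *Pkm*, pyruvate kinase, had 1648 and 613 CPM at early and 2429, 2023 and 2246 CPM at mid. *Gapdh* had 968 and 335 CPM at early and 3614, 1288 and 1657 CPM at mid. The enzyme of the first step differed less: *Hk1*, a hexokinase, had 187 and 225 CPM at early and 76.1, 268 and 285 CPM at mid, with mid 1 below both. *Slc16a1*, which encodes MCT1, the other lactate carrier of the list, had 184 and 88.6 CPM at early and 74.0, 144 and 158 CPM at mid, and thus did not share the pattern of *Slc16a3*; it and *Hk1* were chosen after their values were seen.

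The letters ACGTG, the core bound by HIF-1 and part of the E-box of Myc, were on either strand in 6 of 16 glycolysis promoters (37.5%), against 11.2% of all promoters and 14.4% of those of tested genes. The windows of *Slc16a3* (chr11:120948917-120949066, plus strand) and *Ldha* (chr7:46845654-46845803, plus strand; GRCm38.p6, RefSeq) are shown for these letters, in capitals, with CACGT where they lie on the other strand and CACGTG where both overlap.
Slc16a3: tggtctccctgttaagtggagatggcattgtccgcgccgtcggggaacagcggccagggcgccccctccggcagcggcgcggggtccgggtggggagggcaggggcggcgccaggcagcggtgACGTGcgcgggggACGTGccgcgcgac
Ldha: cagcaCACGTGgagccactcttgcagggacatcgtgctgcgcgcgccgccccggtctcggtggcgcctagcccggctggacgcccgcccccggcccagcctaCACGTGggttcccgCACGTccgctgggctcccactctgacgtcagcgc

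Of 27 genes of mitochondrial respiration, both early libraries lay below mid for 15 (16.5% of all tested genes) and above for 0, with a median log2 difference of 0.48 (0.20 against early 1 and 0.82 against early 2), and 13 were called higher at mid than in early 2 (11.4% of all). *Atp5b*, a subunit of ATP synthase, had 1698 and 977 CPM at early and 2599, 1557 and 1870.4 CPM at mid, so that early 1 overlapped mid 2. Of 19 genes of nucleotide and one-carbon synthesis, both lay below mid for 0 and above for 0: early 1 was within the range of mid for 14 (50.8% of all) and early 2 below it for 17 (36%), and 11 were called higher at mid than in early 2 (11.4%). *Shmt2*, a mitochondrial one-carbon enzyme, had 541 and 166 CPM at early and 679, 336 and 404 CPM at mid. Among 20 genes of Myc and ribosome biogenesis, early 1 lay above all mid libraries for 10 (25% of all tested genes) and early 2 below all for 17 (36%). *Ncl*, nucleolin, had 1816 and 509 CPM at early and 1114, 1379.5 and 1343 CPM at mid. *Myc* itself, the factor that drives cell growth, had 671 and 163 CPM at early and 276, 517 and 326 CPM at mid. Early 1 was thus the highest of these 5 libraries for both, and early 2 the lowest; *Myc* was chosen after its values were seen. The median log2 difference of this list was −0.40 against early 1 and 0.80 against early 2. Against early 1, however, edgeR and DESeq2 each called 0 of the 20. By edgeR 5 had an unadjusted p under 0.05 there (4 lower and 1 higher at mid), where 1053 of 14616 genes did.

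The genes for S100 proteins, annexins and galectins, which T cells gain with activation and memory, lay below mid in both early libraries for 12 of 16 (16.5% of all tested genes), 3 of them by 2-fold, as for 1.03% of all (*Anxa2*, *Lgals3* and *S100a4*, chosen after their values were seen). The median log2 difference was 1.11 against both early libraries and 0.95 against early 1. *S100a10*, a partner of annexin A2, had 309.9 and 184 CPM at early and 993, 497 and 619.9 CPM at mid. *Lgals1*, galectin-1, had 270.4 and 45.3 CPM at early and 1514, 467 and 992 CPM at mid. *Anxa2* had 263 and 12.1 CPM at early and 983, 557 and 708 CPM at mid, while *Anxa6*, the most abundant member, had 596 and 837 CPM at early and 931, 804 and 1101 CPM at mid. By edgeR 5 of 16 were called higher at mid than in early 2 (11.4% of all). Against early 1 edgeR called 0, with 6 at an unadjusted p under 0.05 (1053 of 14616 over all tested genes), and DESeq2 called *S100a10*. Macrophages also express *Lgals3* and *S100a4*: the summed macrophage markers were 9.14 and 5.17 CPM at early and 43.8, 11.05 and 16.8 CPM at mid, and their part in this result was not tested.

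**Figure D4:**
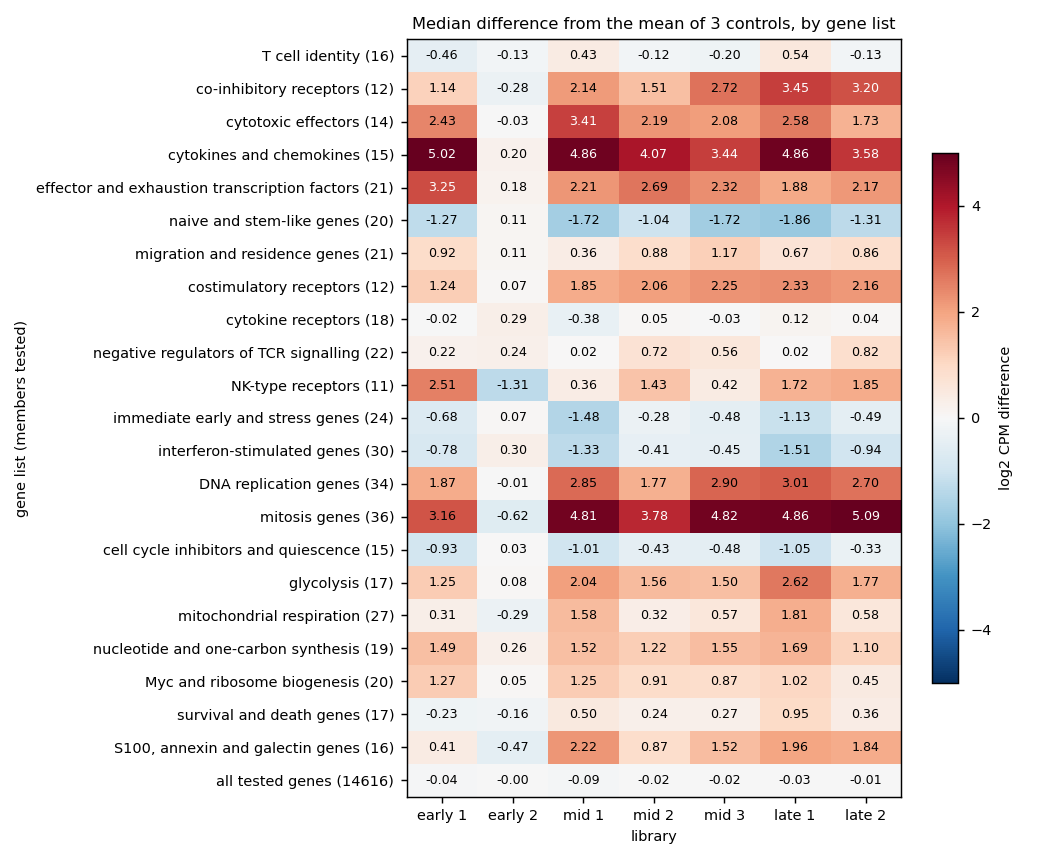
Median over the tested members of each list (rows, number of members in parentheses) of the log2 CPM difference from the mean of the 3 controls, in each early, mid and late library (columns). Early 2 stays between −1.31 and 0.30 throughout, while early 1 is 3.16 for mitosis genes against 3.78 to 4.82 at mid, and 5.02 for cytokines and chemokines against 3.44 to 4.86 at mid.

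Of 15 cytokine and chemokine genes tested, both early libraries lay below mid for 3, near the 16.5% of all tested genes, early 1 was within the range of mid for 9 (50.8% of all) and above it for 2 (25%), and early 2 was below it for 14 (36%). The median log2 difference was −0.54 against early 1 and 4.35 against early 2, and 11 were called higher at mid than in early 2 (11.4% of all). *Xcl1*, the chemokine that attracts cross-presenting dendritic cells, had 1727 and 21.7 CPM at early and 2349, 889.6 and 878 CPM at mid. *Ccl4*, an inflammatory chemokine, had 618 and 7.70 CPM at early and 1682, 439.9 and 310.4 CPM at mid. *Ccl3*, another inflammatory chemokine, had 336 and 3.52 CPM at early and 604, 176 and 203 CPM at mid. *Ccl5* had 392 and 4.71 CPM at early and 351, 202 and 132 CPM at mid, so early 1 was above all mid libraries. Its log2 difference against early 1 was −1.37 ± 0.36, where edgeR did not call it and DESeq2 called it lower at mid. No other member of this list was called against early 1 by either. *Ltb*, lymphotoxin beta, ran the other way between the early libraries, with 411 and 691 CPM at early and 757, 596 and 458 CPM at mid. *Tgfb1*, an immunosuppressive cytokine, was among the 3 separated members, with 119 and 72.5 CPM at early and 149, 149 and 139 CPM at mid.

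These chemokines, with *Zbtb32*, were the 5 genes in which early 1 exceeded early 2 the most. *Zbtb32*, a transcriptional repressor that limits T cell responses, had 130.4 and 0.947 CPM at early and 339, 188 and 226 CPM at mid. For it early 1 was below all mid libraries, unlike for *Ccl5*. The 5 genes in which early 2 exceeded early 1 the most were *Cebpb*, *Irs2*, *Itgae*, *Ppp1r13b* and *Snx20*. *Itgae* encodes CD103, the integrin that binds E-cadherin: it had 41.7 and 306 CPM at early and 11.8, 36.5 and 18.9 CPM at mid, against 95.3 to 217 CPM in the controls. *Irs2*, an insulin receptor adaptor, had 34.2 and 293 CPM at early and 10.1, 90.3 and 63.2 CPM at mid. In both, early 2 was the highest of the 5 libraries, and early 1 lay just above mid for *Itgae* and within mid for *Irs2*.

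Of 14 cytotoxic effector genes, both early libraries lay below mid for 5 (16.5% of all tested genes) and above for 0, and edgeR called 8 against early 2 (11.4% of all). Neither edgeR nor DESeq2 called a member against early 1 (0 of 14), where 1 had an unadjusted edgeR p under 0.05 (1053 of 14616 over all tested genes). *Nkg7*, a granule membrane protein needed for killing, was the most abundant and was among the 5, with 792 and 468 CPM at early and 3422, 1122 and 1264 CPM at mid. Its log2 difference was 0.69 against early 1 and 1.45 against early 2 (edgeR adjusted p = 0.0108). *Srgn*, the proteoglycan of granules, had 422 and 178 CPM at early and 459.5, 559 and 422 CPM at mid.

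For co-inhibitory receptors, both early libraries lay below mid for 7 of 12 (16.5% of all tested genes), 2 of them by 2-fold (*Lag3* and *Havcr2*; 1.03% of all), and the median log2 difference was 0.77 against early 1 and 3.95 against early 2. By edgeR 5 of 12 were called higher at mid than in early 2 (11.4% of all tested genes). Against early 1 edgeR called 0, with 2 at an unadjusted p under 0.05 (1053 of 14616 over all tested genes), and DESeq2 called *Tigit*. *Lag3*, a receptor for MHC class II, had 24.3 and 0.458 CPM at early and 52.2, 84.8 and 71.3 CPM at mid. *Tigit*, a receptor for CD155, had 10.3 and 1.77 CPM at early and 59.2, 20.6 and 37.5 CPM at mid. *Havcr2*, which encodes TIM-3, had 3.77 and 0.0611 CPM at early and 26.4, 9.38 and 40.1 CPM at mid, but control 2 held 12.4 CPM. Macrophages express *Havcr2* too, and the part of the macrophage markers given above was not tested. *Vsir*, the most abundant member, which encodes VISTA, overlapped, with 346 and 423 CPM at early and 337, 396 and 244 CPM at mid. *Lag3*, *Tigit* and *Havcr2* were chosen after their values were seen.

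Of 12 costimulatory receptors, both lay below mid for 5 (16.5% of all tested genes) and above for 1, and 8 were called higher at mid than in early 2 (11.4% of all). *Icos*, a relative of CD28, had 42.1 and 25.7 CPM at early and 96.7, 86.6 and 93.5 CPM at mid, and its mid values lay within a narrow range. *Tnfrsf4*, which encodes OX40, had 20.7 and 1.93 CPM at early and 196, 43.5 and 71.1 CPM at mid. These 2 passed 2-fold separation and were chosen after their values were seen. Against early 1 edgeR called no costimulatory receptor, and DESeq2 called only these 2, higher at mid. *Tnfrsf9*, which encodes 4-1BB and is induced by receptor signals, was at mid level in early 1, with 474 and 11.6 CPM at early and 479, 474 and 396 CPM at mid. *Cd27*, the most abundant member, had 285 and 233 CPM at early and 873, 333 and 285 CPM at mid.

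Of 21 transcription factors of effector and exhausted cells tested, both early libraries lay below mid for 5 (16.5% of all tested genes). Early 1 was within the range of mid for 12 (50.8% of all) and above it for 4 (25%), and 12 were called higher at mid than in early 2 (11.4% of all). The median was 3.25 log2 units above the controls in early 1 and 2.21 to 2.69 units above at mid. *Nr4a1*, an orphan receptor induced by T cell receptor signals, had 884 and 59.1 CPM at early and 337, 838 and 313 CPM at mid. *Nfatc1*, a calcineurin target, had 691 and 339.8 CPM at early and 254, 920 and 802 CPM at mid. *Egr1*, an early growth response factor, had 278 and 92.0 CPM at early and 142, 371 and 197 CPM at mid. In all of these, mid 2 was the highest mid library and early 1 lay within or above mid. None of them is among the 5 members with both early libraries below mid. Neither edgeR nor DESeq2 called a member of this list against early 1. There 2 of the 21, *Batf* and *Tox*, were higher at mid with an unadjusted edgeR p under 0.05 (1053 of 14616 over all tested genes). Against both early libraries together DESeq2 called *Batf* alone, higher at mid.

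Naive and stem-like genes were lower in early 1 than in early 2. Over 20 members, the median stood 1.27 log2 units below the controls in early 1, 0.11 units above in early 2, and 1.04 to 1.72 units below at mid. Both early libraries lay above mid for 3 (17.5% of all tested genes) and below for 3 (16.5%), and early 1 was within the range of mid for 12 (50.8%). Against early 2, 9 were called lower (6.44% of all tested genes) and 2 higher at mid by edgeR. In the contrast with early 1, edgeR and DESeq2 each called 0, and 2 had an unadjusted edgeR p under 0.05 (1053 of 14616 over all tested genes). These 2, *Dapl1* and *Tcf7*, were higher at mid than in early 1. *Tcf7*, which encodes TCF1, had 496 and 1405 CPM at early and 559, 979 and 817 CPM at mid, so early 1 was below all mid libraries. *Ccr7*, the receptor that guides cells to lymph nodes, had 576 and 1451 CPM at early and 533, 575 and 366 CPM at mid. *Klf2* is given above.

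Of 30 interferon-stimulated genes, both early libraries lay above mid for 1 and below for 2, where 17.5% and 16.5% of all tested genes did so. Early 1 lay within the range of mid for 22 (50.8% of all) and early 2 above it for 21 (37.1%), and 14 were called lower (6.44% of all) and 1 higher at mid than in early 2. *Ifi27l2a*, induced by interferon, was the exception that was higher at mid, with 161 and 108 CPM at early and 513, 295 and 468 CPM at mid. Its log2 difference was 1.17 against early 1 and 1.74 against early 2 (edgeR adjusted p = 0.0255).

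In the remaining lists fewer than a majority of the members had both early libraries on the same side of mid; over all tested genes 16.5% had both below and 17.5% both above. For migration and residence genes these were 2 below and 2 above of 21, and *Itgb1*, a beta 1 integrin chain, had 388 and 73.1 CPM at early and 196, 598 and 1500.4 CPM at mid. For cytokine receptors they were 1 below and 2 above of 18, the first being *Il2rb*, the IL-2 and IL-15 receptor beta chain, with 603 and 317 CPM at early and 744, 758 and 1025 CPM at mid. For negative regulators of receptor signalling they were 6 below and 2 above of 22. *Dgka*, a diacylglycerol kinase, was the most abundant of these and had 487 and 1128 CPM at early and 349, 626 and 483 CPM at mid. For NK-type receptors they were 2 below and 1 above of 11, and for survival and death genes 5 below and 2 above of 17. *Klrd1*, the CD94 chain, had 74.0 and 128 CPM at early and 101, 115 and 120.3 CPM at mid. *Mcl1*, a survival factor of the BCL2 family, had 279.5 and 519.6 CPM at early and 225, 443 and 431 CPM at mid.

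Markers of other cells differed in level and were not equal across the libraries. B cell markers had the highest sums, with 356 and 635 CPM at early and 673.5, 477 and 480.3 CPM at mid, most of it *Ighm* (331 and 611.5 CPM at early and 624, 458 and 462 CPM at mid). Endothelial and stromal markers summed to 103 and 187 CPM at early and 66.2, 139 and 109 CPM at mid. Most of it was *Pecam1*, with 99.2 and 182.8 CPM at early and 63.66, 136.4 and 106 CPM at mid. Dendritic cell markers summed to 54.2 and 200 CPM at early and 59.8, 66.2 and 34.8 CPM at mid. Their most abundant gene was *Ccr9*, which is also in the list of migration and residence genes. It had 33.12 and 186.5 CPM at early and 16.15, 38.97 and 13.51 CPM at mid. The part of these markers in the results was not tested. Hepatocyte markers summed to 10.7 and 3.48 CPM at early and 254, 26.3 and 4.69 CPM at mid, with *Alb* the most abundant at 83.1 CPM in mid 1. Erythroid markers summed to 3.22 and 104 CPM at early and 208, 5.39 and 16.8 CPM at mid, and neutrophil markers to 3.70 and 12.9 CPM at early and 4.64, 1.82 and 2.54 CPM at mid. *Lyve1*, of sinusoidal endothelium, was at 0 in all 5 libraries, as was *Hoxa9*, of myeloid progenitors. The myeloid progenitor markers summed to 2.64 and 3.61 CPM at early and 1.55, 1.47 and 5.15 CPM at mid. Whether C1498 cells express these markers was not tested, so the sums do not measure RNA from leukemia cells. The macrophage sums and the T cell identity sums were each lower in both early libraries than in all mid libraries. With 3 against 2 libraries a two-sided exact permutation test cannot give a p under 0.2, so it cannot separate these sums. Control 1 and control 2 held far more of some of these markers, with sums of 1985 and 1794 CPM for dendritic cells and 5163 and 19786 CPM for erythroid cells, and the part of these in the values set beside the controls was not tested. *H2-Ab1*, a class II gene of antigen-presenting cells, had 0.992 and 0.550 CPM at early, 15.9, 6.68 and 3.92 CPM at mid and 442 to 572 CPM in control 1 and control 2.

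**Figure D5:**
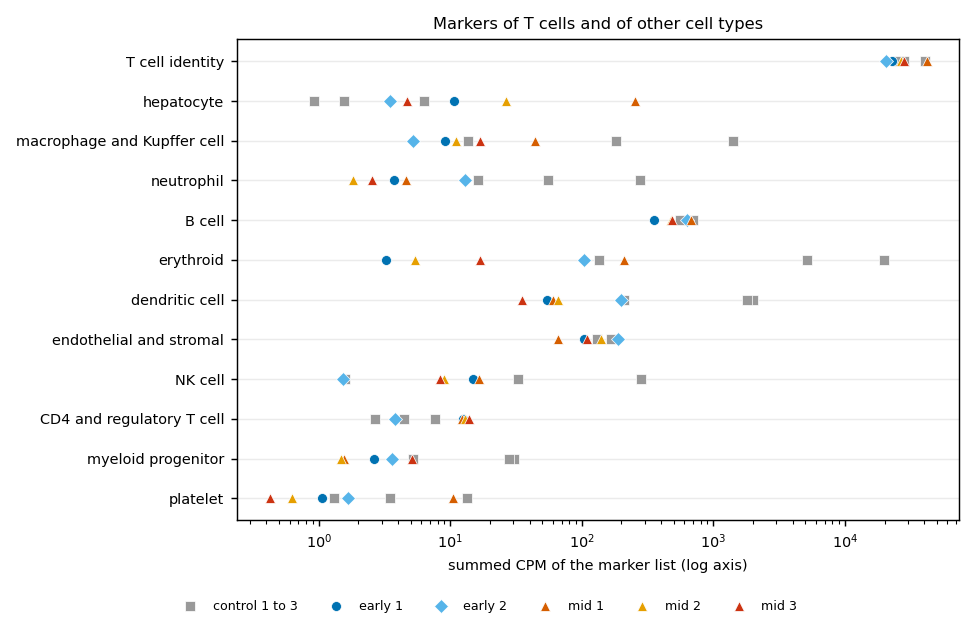
Summed CPM of each marker list on a log axis, 1 point per library (circle early 1, diamond early 2, triangles mid, grey squares controls). T cell identity genes sum to 20588.5 CPM or more in all 5 libraries, and hepatocyte markers reach 254 CPM in mid 1 only.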

How the data were processed

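TCRTg101 cells sorted from liver or spleen were profiled by RNA-seq in 26 samples. The authors pseudoaligned reads with kallisto and deposited estimated counts and TPM (a share of transcripts scaled by length) per transcript and sequencing run; versions are not given in the sources used here. Transcripts were assigned to genes by GENCODE vM21 (116710 of 118783, GRCm38), estimated counts were summed per gene, and runs of the same library were added and rounded. Groups came from the labels. The TG or XC prefix of the titles was taken as a series of libraries, which the labels do not state.

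Genes with 10 counts in at least 6 of 11 libraries (14616) were fitted in edgeR 4.0.16 (R 4.3.3; TMM; group and series as terms; robust quasi-likelihood; Benjamini-Hochberg adjusted p, threshold 0.05), jointly and with each early library as its own group. DESeq2 1.42.0 and limma 3.58.1 were alternatives; the TPM were used to rescale counts in another. Scripts were tested on simulated data. Separation was measured on log2 CPM with a prior count of 2. Genes named by distance (12 in each direction), by the difference between early libraries (5 each) or by p (5 each) were protein-coding with a mean log2 CPM of at least 5. At any level, 2 to 6 members of each gene list were named, those with the highest level or named by the other parts. Others, such as the genes called against each early library, were chosen after their values were seen. The members and lists were chosen with earlier results of these data known. Promoter sequences are from RefSeq, GRCm38.p6, without those on chromosome 18. Depth bounds precision, and intervals cover the spread between libraries only. Some genes that meet these rules are not reported here.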

Additional observations from a re-analysis of the deposited data

How the results depend on the processing

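Against both early libraries the main count was 0. It was 464 with DESeq2 (304 up, 160 down) and 1422 with no filter beyond 1 count (858 up, 564 down). Leaving out single libraries it ran from 0 to 2574: 2574 without early 1, 53 without early 2, 6 without mid 2 and 0 otherwise. Against early 1 the main count of 53 (53 up, 0 down) became 262 with DESeq2 (257 up, 5 down), 0 with no series term, 468 with no filter (361 up, 107 down), 1 in the XC series and 17 with counts scaled from TPM, and ran from 14 (without mid 3) to 160 (without mid 2; 131 up, 29 down), with 24 without mid 1. Against early 2 the main count of 2602 became 200 with no series term and ran from 1051 (without mid 3) to 2957 (without mid 2), with 1725 without mid 1. The 12 genes called against both became 131 with DESeq2, 0 with no series term, 278 with no filter, 0 in the XC series, 4 with counts scaled from TPM and 19 with a GC and length correction chosen after seeing the data, and ran from 4 (without mid 3) to 104 (without mid 2), with 6 without mid 1. The 259 genes with 2-fold separation became 727 with no filter, 142 with a filter of 50 counts and 162 with a prior count of 10, and ran from 348 (without mid 3) to 2589 (without early 1), with 448 without early 2, 445 without mid 1 and 905 without mid 2. Log2 differences that changed sign were those of *Ccl5* (1.72 with limma-voom, 0.20 with no series term, −1.38 to 5.003 leaving out libraries), *Xcl1* (−0.015 with the 5 libraries only, −0.032 in the XC series, −0.93 to 5.39), *Cebpb* (−0.078 with no series term, −0.19 with the GC and length correction, −0.85 to 4.11), *Ccl3* (−0.91 to 5.67), *Ccl4* (−0.83 to 5.49), *Irs2* (−2.16 to 0.93), *Ppp1r13b* (−1.87 to 0.84) and *Snx20* (−0.21 to 2.41). The cause was not tested. Of 612 alternative values of 36 named genes, 511 kept direction and side of the threshold, 84 passed it only in the alternative and 17 changed sign. The fit of the 5 libraries alone was not run for each early library. No paired analysis was possible because the replicate numbers follow accession order and pair no libraries.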
